A study of Gallus gallus with 24 samples.

Results

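Interdigital region 3 of the embryonic chicken hindlimb, the mesenchyme lying between neighbouring digits, was profiled by RNA-seq in 24 libraries. The libraries were divided by the measured level of 1 gene, ENSGALG00010011988. The 13 libraries with at least 50 counts per 1000000 reads (CPM) of this gene are called marker-high, and the 11 libraries under 50 CPM are called marker-low. The 2 sets hold 13 and 11 of the 24 libraries of the series. The question was how many other genes differed between the sets, by how much and in which direction, once the incubation time was a term in the fit.

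All embryos had been incubated for 7 days and a further 4, 6, 8 or 11 hours, with 6 libraries at each time. No treatment beyond incubation is given in the labels, and neither strain, genotype nor sex is stated. The sets were spread over the time course, with 3 marker-high and 3 marker-low libraries at each of 4, 6 and 8 h, and 4 marker-high and 2 marker-low libraries at 11 h. Whether the libraries of a time came from different embryos is not said in the labels. The p-values below therefore reflect variation among these samples, which may in part be technical.

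In birds the female is the sex with unlike sex chromosomes, Z and W, while the male carries a pair of Z chromosomes. Genes of the W chromosome are therefore transcribed in females only. Dosage compensation of the Z chromosome in chicken is incomplete and works gene by gene, so that many Z genes are more abundant in males. The interdigital mesenchyme is the tissue whose regression separates the digits, and the title of the series concerns cell death there, with BMP signals and oxidative stress. The division was proposed as a candidate sex difference. No table used here pairs the Ensembl identifiers with names or chromosomes, so genes are given by identifier and by row in the deposited table, and the part of sex in the differences was not tested. For the same reason the tissue could not be checked against its defining markers.

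Depth was 690847 to 6060955 reads in marker-high libraries, with a median of 4213804, and 1794673 to 8134730 reads in marker-low libraries, with a median of 4480228. The mean depth was 3769821 ± 2052310 reads in marker-high and 4862239 ± 1929278 reads in marker-low libraries (SD, n = 13 and 11; two-sided permutation p = 0.195 with 100000 resamples, adjusted p = 0.195 over 2 tests). The number of genes with a read averaged 16266.5 ± 2073 in marker-high and 17758.7 ± 1103 in marker-low libraries (permutation p = 0.0430, adjusted p = 0.0859). The 3 libraries under 1000000 reads, replicate 5 at 6 h and replicates 2 and 5 at 8 h, were all marker-high. Several counts of called genes are given below with and without them, and the other counts only with them. No 2 libraries at one time were deposits of the same counts: chi-square, which sets differences against the counting error of reads taken as independent, was 8.08 or more per degree of freedom for every pair.

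The marker gene itself lay at 2 widely separated levels at every time. ENSGALG00010011988, at row 28328 of the table, had 811, 835 and 1024 CPM in marker-high libraries at 4 h, against 5.26, 5.90 and 9.42 CPM in marker-low libraries. At 6 h it had 533, 731 and 777 CPM in marker-high libraries, against 4.57, 7.80 and 8.97 CPM in marker-low libraries. The values at 8 h were 570, 589 and 672 CPM in marker-high libraries and 4.23, 5.36 and 6.25 CPM in marker-low libraries. The order of the sets was thus the same at each of these times, with no library between them. At 11 h the gene had 654, 658, 746 and 763 CPM in marker-high libraries, against 3.62 and 5.36 CPM in marker-low libraries.

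Across the series the marker averaged 720 ± 131 CPM in marker-high and 6.07 ± 1.90 CPM in marker-low libraries (SD, n = 13 and 11), a ratio of 118.7. The lowest marker-high library, at 533 CPM, stood 56.6-fold above the highest marker-low library, at 9.42 CPM. Moving the threshold to 20 or to 100 CPM moved 0 libraries between the sets. These values chose the sets, so they are a description and carry no test. The marker was not at zero in the marker-low libraries, where it had 301 reads in all.

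**Figure D1:**
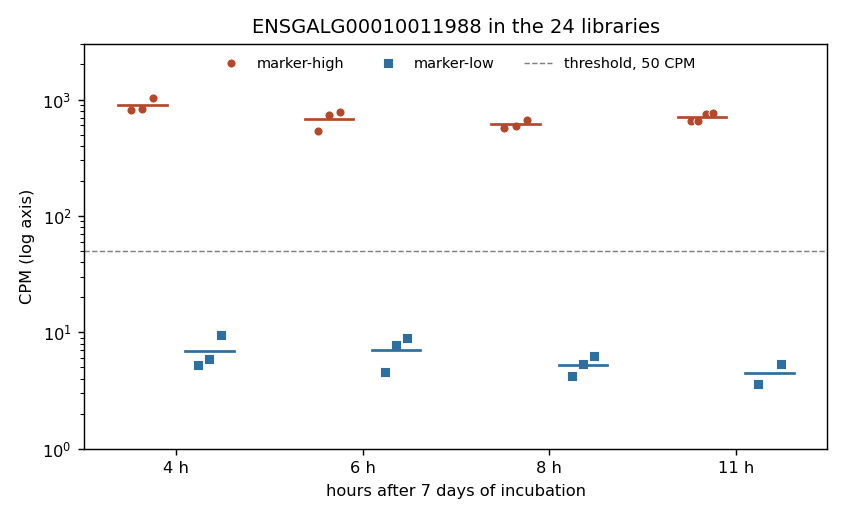
CPM of ENSGALG00010011988 on a log axis in each of the 24 libraries, by time, with marker-high libraries as circles on the left and marker-low libraries as squares on the right of each time; short lines are means and the dashed line is the threshold of 50 CPM. The marker-high libraries lie between 533 and 1024 CPM and the marker-low libraries between 3.62 and 9.42 CPM.

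A set of genes shared the division of the marker almost completely. With time as a term, 48 genes, the marker among them, were higher in marker-high libraries by over 2 log2 units, and 1 gene was lower by over 2 log2 units. These are called on/off genes here. They include the genes that first drew attention to this division, so their differences are given as values only. Log2 differences are of log2(CPM + 1); on this scale a change of a gene near 0 CPM appears smaller than it is.

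The 48 on/off genes higher in marker-high libraries differed by 2.03 to 6.69 log2 units, with a median of 3.58. Their mean levels were 4.47 to 720 CPM in marker-high libraries, with a median of 32.8, and at most 16.9 CPM in marker-low libraries, with a median of 1.63. In 43 of the 48 the ranges of the sets did not overlap, whereas over all 13783 tested genes 66 (0.479%) had ranges that did not overlap. All 48 were higher in marker-high libraries at each of the 4 times. These 48 were picked for a large difference across this division, so both counts are a description. In log2 units, their median difference ran 3.61, 3.50, 3.64 and 3.93 over 4, 6, 8 and 11 h.

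No on/off gene of the 48 was without a read in marker-low libraries, and the reads over these 11 libraries ranged from 2 to 816 per gene, with a median of 92. For the 35 genes with at least 50 such reads, the mean level in marker-low libraries was 0.842% to 16.9% of that in marker-high libraries, with a median of 4.39%. The marker had the lowest of these shares. Summed over the 48 genes, marker-high libraries had 3653 to 5335 CPM, with a median of 4288, and marker-low libraries had 79.7 to 215.6 CPM, with a median of 114.6. Without the marker the sums were 3115 to 4310 CPM in marker-high and 76.1 to 207.8 CPM in marker-low libraries. The sets were apart in each of these sums, which is a description, since the genes were picked across this division.

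Deeper marker-low libraries tended to have a lower summed level of the on/off genes. The on/off genes had 342 to 874 reads per marker-low library, and the summed level was 215.6 CPM in the shallowest of these libraries, with 1794673 reads, and 106.9 CPM in the deepest, with 8134730 reads. Over the 11 marker-low libraries, summed CPM and depth had Pearson's r = -0.735 and Spearman's rho = -0.773. The sum includes the marker, and its other genes were picked across this division in these same libraries. These correlations are therefore given as values with no test. Without the 2 libraries farthest from the median depth, r was -0.635 (n = 9). Within the 7 marker-low libraries with the lower library numbers in the labels, r was -0.744 and rho was -0.750. The other 4 were too few for a value. The part of depth in the shares above was not tested.

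The limit of 2 log2 units did not fall in a wide gap. The gene just over it on the higher side differed by 2.03 log2 units, with 7.19 CPM in marker-high and 0.765 CPM in marker-low libraries. The gene just within it differed by 1.90 log2 units, with 36.3 CPM in marker-high and 9.07 CPM in marker-low libraries. On the lower side, the gene just over the limit differed by -2.05 log2 units, with 0.255 CPM in marker-high and 4.61 CPM in marker-low libraries. The gene just within the limit differed by -1.76 log2 units, with 1.36 CPM in marker-high and 5.04 CPM in marker-low libraries.

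Outside the on/off genes, most differences between the sets were reductions of under 2-fold in marker-high libraries. Of 13783 genes tested with limma, 178 (1.29%) had an adjusted p under 0.05, with 61 (0.443%) higher and 117 (0.849%) lower in marker-high libraries. These counts include the marker, whose own values set the division. Without it, 177 other genes were called, 60 of them higher and 117 lower, and 47 of the 60 are on/off genes. An unadjusted p under 0.05 was found for 1171 genes. With the on/off genes set aside, 13 genes (0.0943%) were higher and 116 genes (0.842%) were lower. A p here measures how closely a gene followed a division that was itself defined by the marker in the same libraries.

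The sizes of the 116 lower genes were bounded by their choice. The threshold on adjusted p tends to leave out small differences, and the limit leaves out those over 2 log2 units. Their differences ran from -1.76 to -0.43 log2 units, with a median of -0.81 and quartiles of -0.93 and -0.67, against a median of -0.07 over all tested genes. Of the 116, 3 fell by at most 0.5 log2 units, 94 by 0.5 to 1, 17 by 1 to 1.5 and 2 by more. The median difference equals a ratio of 0.572 of the marker-high to the marker-low level. The groups of libraries did not overlap for 22 of the 116, beside 66 of all 13783 tested genes (0.479%). The 116 were called on this same division, so the count is a description. A mean of at least 10 CPM was reached by 106 of them.

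The same genes were lower throughout the time course. At each of the 4 times taken alone, 113 of the 116 (97.4%) had a negative difference, whereas 2066 of all 13783 tested genes (15%) kept 1 sign at the 4 times. Over 4, 6, 8 and 11 h, the median difference of the 116 was -0.65, -0.84, -0.88 and -0.82, against -0.00, -0.09, -0.17 and -0.02 for all tested genes. The differences at the 4 times entered the pooled difference that chose these genes, so the shares are a description.

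The 13 higher genes covered a wider range of sizes and their count moved with the libraries used. They differed by 0.40 to 1.90 log2 units with a median of 1.03, a ratio of 2.04. Of them, 1 rose by at most 0.5 log2 units, 5 by 0.5 to 1, 3 by 1 to 1.5 and 4 by more. The sets did not overlap for 1 of the 13, beside 66 of all 13783 tested genes (0.479%). The count dropped to 6 when the 3 libraries under 1000000 reads were left out, and 5 of the original 13 were still called. It was 7 with log2 depth as a term. Leaving out 1 library gave 7 genes without replicate 5 at 6 h, and 8 genes without replicate 1 at 8 h or without replicate 3 at 11 h.

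Without the 3 shallow libraries, 92 of the 116 lower genes were still called, among 108 lower genes within 2 log2 units in that fit. All 48 on/off genes higher in marker-high libraries were called there too. Over all 13783 tested genes, 163 were called in that fit. Both groups of genes were picked across this division with the retained libraries among those used, so their counts are a description only. The median over all tested genes moved to -0.00 log2 units without the 3 shallow libraries, against -0.07 with them.

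The 4 genes within 2 log2 units named here have the smallest p in each direction among called genes with at least 10 CPM. ENSGALG00010012781 had 74.1, 103 and 117 CPM in marker-high libraries at 4 h, against 13.2, 22.4 and 29.4 CPM in marker-low libraries. At 6 h it had 53.7, 62.0 and 92.2 CPM in marker-high libraries, against 21.7, 25.4 and 26.8 CPM in marker-low libraries. At 8 h the values were 48.1, 48.3 and 76.7 CPM in marker-high and 15.6, 19.8 and 22.7 CPM in marker-low libraries. Every marker-high library stood above every marker-low one at these times. At 11 h it had 73.3, 73.8, 84.9 and 90.5 CPM in marker-high libraries and 12.0 and 19.8 CPM in marker-low libraries. The mean was 76.7 ± 20.9 CPM in marker-high and 20.8 ± 5.51 CPM in marker-low libraries (SD, n = 13 and 11), and the difference was 1.81 ± 0.15 log2 units (SE; limma, adjusted p = 1.5e-10). This gene lies at row 28398.

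ENSGALG00010011442, at row 28293, had 20.4, 42.8 and 44.8 CPM in marker-high libraries at 4 h, against 4.55, 6.64 and 10.6 CPM in marker-low libraries. At 6 h it had 29.8, 30.7 and 36.4 CPM in marker-high libraries and 8.53, 9.47 and 17.3 CPM in marker-low libraries. At 8 h the values were 15.9, 29.1 and 61.0 CPM in marker-high libraries, against 4.24, 7.96 and 15.8 CPM in marker-low libraries. The sets came closest at 8 h, and over the whole series they overlapped slightly. At 11 h the gene had 35.3, 37.0, 38.2 and 50.3 CPM in marker-high libraries, against 4.47 and 10.3 CPM in marker-low libraries. Its means were 36.3 ± 12.0 CPM in marker-high and 9.07 ± 4.35 CPM in marker-low libraries (SD, n = 13 and 11), with a difference of 1.90 ± 0.25 log2 units (SE; limma, adjusted p = 1.6e-06).

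The gene with the smallest p among the lower ones was ENSGALG00010010713, at row 28975. It had 273.6, 284.7 and 306.4 CPM in marker-high libraries at 4 h, against 498, 517 and 566 CPM in marker-low libraries. At 6 h it had 284.8, 288.8 and 303.6 CPM in marker-high libraries, against 532, 574 and 596 CPM in marker-low libraries. At 8 h it had 304, 346 and 349 CPM in marker-high and 517, 551 and 555 CPM in marker-low libraries. No marker-high library reached the lowest marker-low library at any of these times. At 11 h the values were 276.5, 315.8, 328.4 and 328.9 CPM in marker-high libraries, against 545 and 560 CPM in marker-low libraries. The mean was 307.0 ± 25.4 CPM in marker-high and 546.5 ± 28.5 CPM in marker-low libraries (SD, n = 13 and 11), and the difference was -0.86 ± 0.08 log2 units (SE; limma, adjusted p = 8.4e-10).

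ENSGALG00010011192, at row 28498, was lower in marker-high libraries by a similar factor. At 4 h it had 2887, 3300 and 3566 CPM in marker-high libraries, against 5682, 5995 and 6057 CPM in marker-low libraries. At 6 h it had 2556, 3532 and 3614 CPM in marker-high libraries, against 5850, 5912 and 6415 CPM in marker-low libraries. The gap between the sets was wide at both times. At 8 h the gene had 3208, 3487 and 3653 CPM in marker-high libraries, against 6196, 6239 and 6286 CPM in marker-low libraries. At 11 h it had 3341, 3347, 3406 and 3421 CPM in marker-high libraries, against 6563 and 6825 CPM in marker-low libraries. The means were 3332 ± 307 CPM in marker-high and 6183 ± 333 CPM in marker-low libraries (SD, n = 13 and 11), with a difference of -0.93 ± 0.09 log2 units (SE; limma, adjusted p = 1.5e-09).

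**Figure D2:**
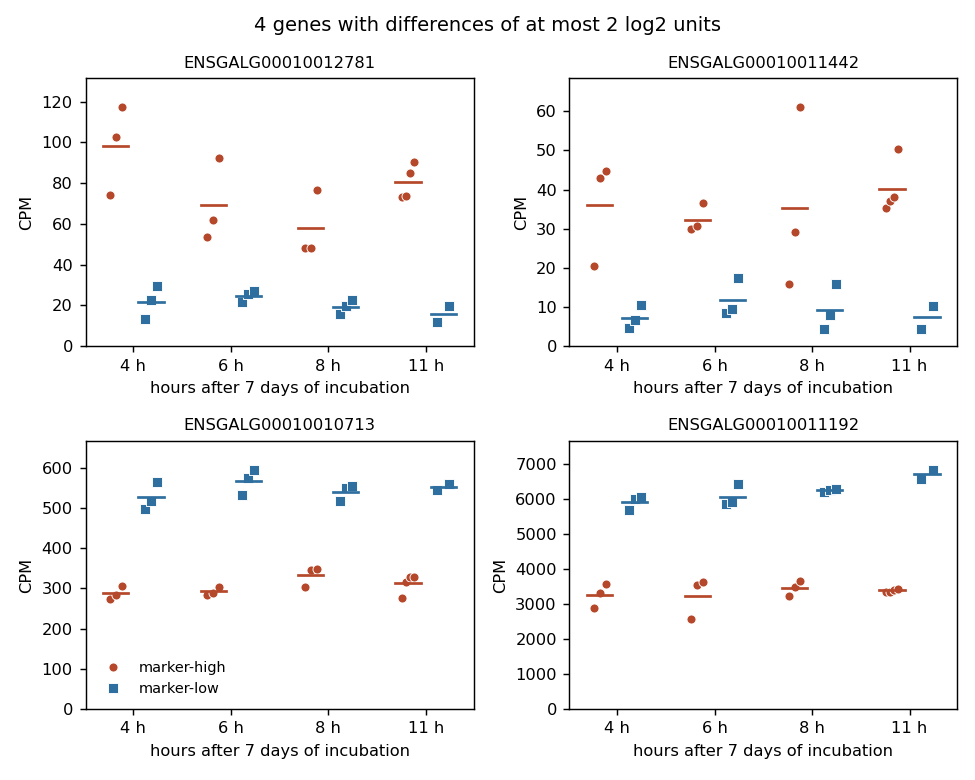
CPM of 4 genes by time in marker-high libraries (circles, left) and marker-low libraries (squares, right); short lines are means and each axis starts at 0. The 2 genes of the upper row are higher and the 2 of the lower row lower in marker-high libraries, and the sets overlap over the series only for ENSGALG00010011442, where marker-high libraries start at 15.9 CPM and marker-low libraries reach 17.3 CPM.

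The called genes were not spread evenly over the rows of the deposited table. What the row order stands for is not given in the sources used here. Of the 48 on/off genes higher in marker-high libraries, 47 lay in 2 short stretches of rows near its end. The stretches were bounded after the values were seen, by the outermost on/off genes, so their counts carry no test.

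The first stretch, rows 27837 to 27878, held 18 tested genes, and all 18 were on/off genes higher in marker-high libraries. The second, rows 28291 to 28434, held the marker and 76 tested genes. Of these, 33 (43.4%) were called, with 29 on/off genes and 4 genes that were higher by at most 2 log2 units. Both named higher genes are among those 4. A further 16 genes of the second stretch had at least 10 CPM and were not called, with differences of -0.13 to 1.02 log2 units and a median of 0.11.

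The last stretch followed directly, from row 28435 to the last row, 30108. It held 757 tested genes, of which 110 (14.5%) were called. Among these, 108 were lower in marker-high libraries by at most 2 log2 units, and so the last stretch held 108 of the 116 lower genes. It also held the 1 gene lower by over 2 log2 units and 1 gene that was higher. In all other rows, 17 of 12932 tested genes (0.131%) were called, with 9 higher and 8 lower.

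**Figure D3:**
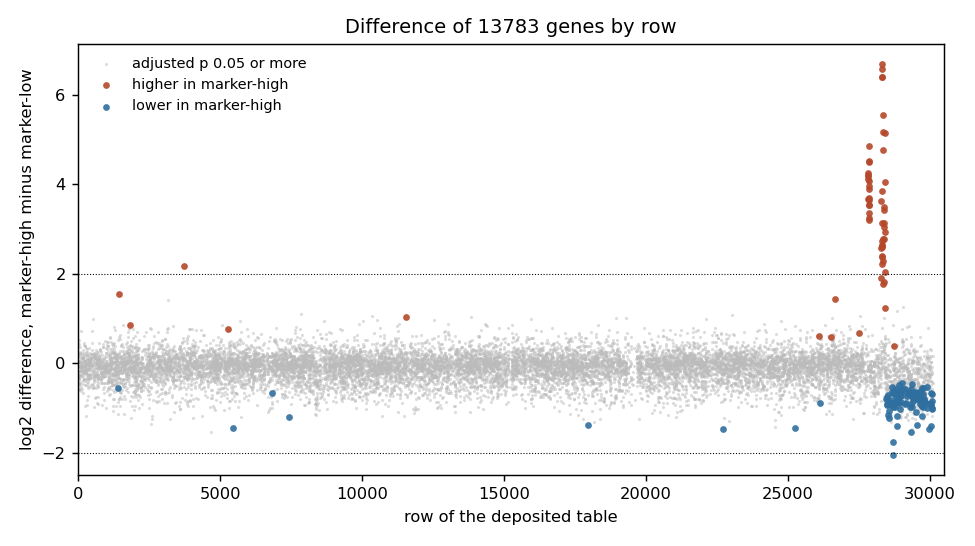
Log2 difference, marker-high minus marker-low, of the 13783 tested genes by row of the deposited table; red points are called higher, blue points called lower, grey points not called, and dotted lines mark 2 log2 units. Apart from 1, the on/off genes higher in marker-high libraries stand in 2 narrow columns between rows 27837 and 28434. The blue points crowd into rows 28435 to 30108.

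Within the last stretch the shift ran through most of the well expressed genes, called or not. Of 386 genes there that averaged 10 CPM or more, 344 (89.1%) had a negative difference, and the median was -0.52 log2 units with quartiles of -0.73 and -0.22. Outside the 3 stretches, 3769 of 6770 such genes (55.7%) had a negative difference, and the median was -0.02 with quartiles of -0.16 and 0.10. The median ratio of the mean CPM, marker-high over marker-low, was 0.731 in the last stretch and 1.02 outside the stretches. Unlike the fitted log2 differences, these ratios use CPM without scaling factors and without the time term. Of these 386 genes, 104 were called. Among the remaining ones 241 (85.5%) still had a negative difference, with a median of -0.37.

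The median difference was negative all along the last stretch, but its size varied. In 17 windows of 100 rows, each with 10 to 33 genes of at least 10 CPM, the median difference ran from -0.74 to -0.25 log2 units, and 82.1% to 96.4% of the genes were negative. At least 1 called gene lay in 16 of the 17 windows. Before the first stretch, 55 bins of 500 rows had medians between -0.08 and 0.04 log2 units. Over all tested genes, 12 of these 55 bins held a called gene, with at most 2 in a bin.

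Over 4, 6, 8 and 11 h, the median of the 386 genes was -0.40, -0.47, -0.56 and -0.46 log2 units, against 0.08, -0.03, -0.11 and -0.02 for the genes outside the stretches. The median was -0.44 without the 3 libraries under 1000000 reads, where that of the outside genes was 0.05.

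**Figure D4:**
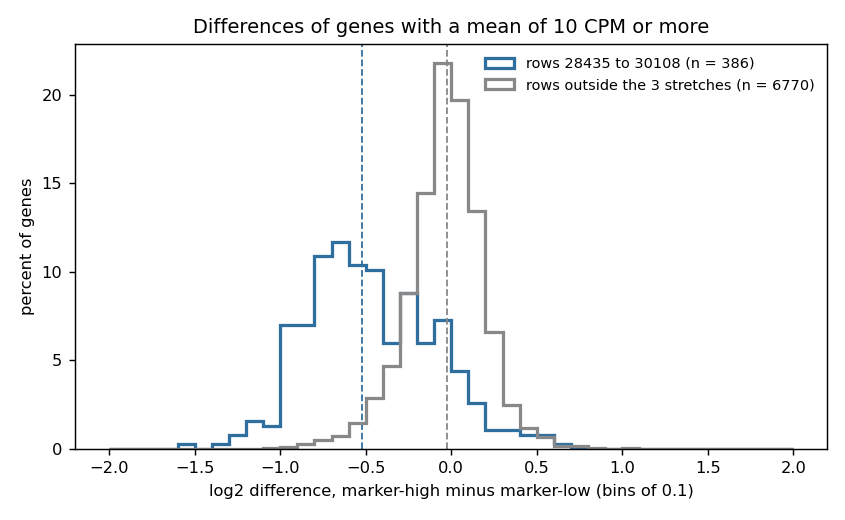
Distribution of the log2 difference, marker-high minus marker-low, for genes averaging 10 CPM or more, as a percent of genes in bins of 0.1; blue, 386 genes of the last stretch, and grey, 6770 genes outside the 3 stretches, with dashed lines at the medians of -0.52 and -0.02. The blue distribution is wider and lies to the left, with a shoulder near 0.

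The reduction varied from gene to gene. Among the 386 genes, 100 had a marker-high mean of at least 0.9 of the marker-low mean, and 211 had one under 0.75. The share called was larger among more abundant genes, and their median ratio was lower than the 0.731 of the 386 genes. More abundant genes are also measured with more reads, and the part of read number in the share called was not tested. Of 131 genes with at least 50 CPM, 70 (53.4%) were called lower, and the median ratio was 0.699. Of 47 genes with at least 100 CPM, 31 (66.0%) were called lower, and the median ratio was 0.643, while 7 had a ratio of at least 0.9. Outside the stretches, 0 of 1155 genes with at least 100 CPM were called lower, at a median ratio of 1.02.

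Summed over the 386 genes, each marker-high library was below each marker-low library. The sum was 33055 to 35964 CPM in marker-high libraries, with a median of 34304, and 49409 to 52853 CPM in marker-low libraries, with a median of 51261. The means were 34362 ± 897 CPM in marker-high and 51048 ± 1205 CPM in marker-low libraries (SD, n = 13 and 11). A few abundant genes carry much of this sum. Without the 5 genes that averaged 1000 CPM or more, the remaining 381 summed to 17866 to 22728 CPM in marker-high and 26149 to 28163 CPM in marker-low libraries, again without overlap. In tissue samples of this kind, fewer cells with a transcript and less transcript per cell cannot be told apart.

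**Figure D5:**
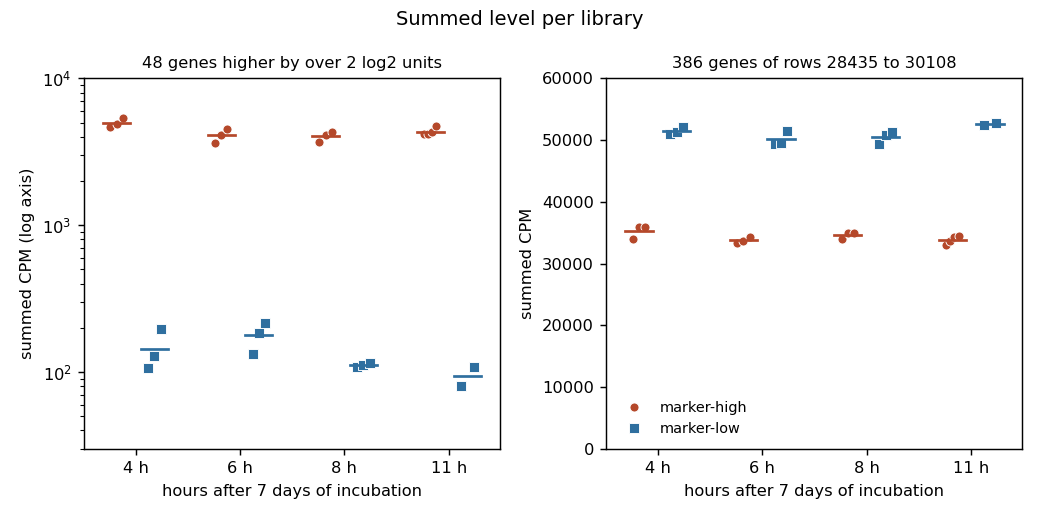
Summed CPM per library by time, marker-high as circles on the left and marker-low as squares on the right, with short lines at the means; left, the 48 on/off genes on a log axis, and right, the 386 well expressed genes of the last stretch on an axis from 0. The on/off sums are 3653 to 5335 CPM against 79.7 to 215.6 CPM, and the last-stretch sums are 33055 to 35964 CPM against 49409 to 52853 CPM.

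Calls outside the 3 stretches were few, and most had an adjusted p close to the threshold. The adjusted p of the 17 genes ran from 1.9e-07 to 0.045 with a median of 0.033 (limma), and their absolute differences were 0.55 to 2.17 log2 units. Without the 3 shallow libraries 9 genes were called there, 3 of them among the 17, and 163 genes were called in the whole table, against 178 with all libraries. Leaving out 1 library at a time gave 7 to 22 calls there. The count was 7 without replicate 5 at 6 h, 8 without replicate 1 at 8 h, and 9 without replicate 3 at 4 h, replicate 2 or 3 at 6 h, or replicate 3 at 11 h. It was 10 without replicate 6 at 8 h or replicate 1 or 2 at 11 h, and 11 without replicate 2 or 6 at 4 h. For most well measured genes outside the stretches, the difference was bounded within 1.5-fold. The 95% interval of the difference lay within 1.5-fold for 4141 of the 6770 genes (61.2%) and within 2-fold for 6286 (92.9%). In the last stretch the interval lay within 1.5-fold for 79 of 386 genes (20.5%).

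By their numbers in the labels, libraries form a lower range, with 7 marker-high and 7 marker-low libraries, and an upper range, with 6 marker-high and 4 marker-low libraries. The labels do not call these ranges batches, and the step of 2 between them is found 5 times inside the lower range as well. The ranges are tied to time, since the lower one holds all 6 libraries of 4 h, all 6 of 11 h and 1 each of 6 and 8 h, and the upper one 5 each of 6 and 8 h. The upper range holds the 3 shallow libraries, all of them among its 6 marker-high ones. The ranges share no library, but the marker set the division in both, and the stretches of rows were bounded with all libraries. Genes called in the lower range were read in the upper one, a reading chosen after the values were seen. It is therefore a description of how these genes followed the same division there. In the lower range alone 64 genes were called lower by at most 2 log2 units, and all 64 lay in the last stretch of rows. In the upper range 64 of the 64 were lower in marker-high libraries, as were 8397 of all 13782 genes tested there (60.9%). An unadjusted p under 0.05 was reached by 48 of the 64 (75.0%), whereas 483 of all genes (3.50%) were lower at that p. With adjustment over all genes, 11 of the 64 passed in the upper range (limma). Of all 13782 genes tested there, 53 passed in either direction, and 13 of these were lower. The median difference of the 64 was -0.76 log2 units in the upper range, from -1.62 to -0.02, beside -0.82 in the lower range.

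The 1 gene called higher by at most 2 log2 units in the lower range had a difference of -0.03 in the upper one. The genes over 2 log2 units are given as values only. The marker among them set the division in both ranges, and on/off genes first drew attention to this division. In the lower range 50 genes were higher by over 2 log2 units. All 50 were higher in the upper range, as were 5385 of all 13782 genes tested there. The 50 were picked for a large difference across the same division, so this count is a description. The median difference of the 50 was 3.65 log2 units in the lower range and 3.44 in the upper one.

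No gene's difference was shown to vary among the 4 times. The interaction of division and time was called for 0 of 13783 genes (0%) with limma, and the smallest adjusted p was 0.992. An unadjusted p under 0.05 was reached by 631 genes (4.58%). With limma-voom on the recovered reads 0 genes were called, and 739 had an unadjusted p under 0.05. For ENSGALG00010012781 the difference was 2.22, 1.43, 1.40 and 2.25 log2 units at 4, 6, 8 and 11 h, and for ENSGALG00010011192 it was -0.82, -0.91, -0.97 and -1.04.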

How the data were processed

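Chicken interdigital region 3 was sequenced with Lasy-Seq, a multiplexed protocol, per the labels' protocols. Among the tools that the submitters' processing notes list are Salmon, BWA 0.7.17-r1188 and fastp 0.21.0. For Salmon no version is given in the sources used here, and neither is the genome build or annotation. The authors deposited natural log values, ln(CPM + 1): exp(value) - 1 summed to 1000000 for every library. Nonzero CPM were whole multiples of the worth of 1 read (tolerance 0.01 read) in all but 2 of 406811 cases, which gave the depth per library, 690847 to 8134730 reads.

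Libraries were divided at 50 CPM of ENSGALG00010011988. Scaling used trimmed mean of M (TMM) factors of the recovered reads, with 30% of M and 5% of A trimmed. The scaled values, as log2(CPM + 1), were fitted with limma 3.58.1 in R 4.3.3 with an intensity trend and with division and time as terms. The values printed per library are CPM without these factors. Tested genes had 2.26 CPM (10 reads in a library of median depth) in 6 or more libraries and 15 or more reads in total. P-values were adjusted by Benjamini-Hochberg over 13783 genes, with a threshold of 0.05. The procedure was tested on simulated data, with known changes in genes of at least 10 CPM. These data had the same variability setting for every gene, no time effect and no shift of a whole stretch of rows.

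The division, the limit of 2 log2 units, the lists and the naming rule were chosen with earlier results of these data known; the stretches of rows and the reading of one number range in the other were chosen after the values were seen. Named genes are the marker and the 2 in each direction with the smallest p among called genes within 2 log2 units and with at least 10 CPM. Of 30108 identifiers, 0 matched the 25635 genes of the reference table, so the lists of sex-linked, cell death, oxidative stress and cell type genes were not evaluated. CPM are not divided by transcript length, so where genes are grouped by CPM, more abundant means more reads. Alternatives covered scaling, filter, pseudocount, limma-voom, array weights, time, depth, number range, replicate number and left-out libraries.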

Additional observations from a re-analysis of the deposited data

How the results depend on the processing

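The total count of called genes stayed within 1.5 times of 178 in 38 of 44 alternatives. It was 115 and 53 in the lower and upper number range alone, and 51, 27, 34 and 79 at 4, 6, 8 and 11 h alone, where fewer libraries enter. Leaving out any 1 library kept it within 1.5 times.

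Genes lower by at most 2 log2 units stayed within 1.5 times of 116 in 40 of 46 alternatives. The others were 64 and 13 in the lower and upper range alone, and 5, 0, 4 and 32 at the 4 times alone. Leaving out any 1 library kept it within 1.5 times.

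The 13 genes higher by at most 2 log2 units stayed within 1.5 times in 32 of 46. The count was 31 at a pseudocount of 5 and 27 with an on/off limit of 3 log2 units, both of which move on/off genes into this class. It was 7 with log2 depth as a term, 6 without libraries under 1000000 reads, 1 and 2 in the lower and upper range alone, and 2, 1, 0 and 1 at the 4 times alone. Leaving out 1 library gave 7 to 13. Beyond the settings with fewer libraries or a moved limit, the cause was not tested.

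A replicate block, with replicate number as a further term, gave 152 called genes, of which 99 were lower and 5 higher by at most 2 log2 units. The numbers were not shown to pair the libraries. Of 36 pairs with the same number at different times, 5 had deviations that correlated above 0.1. Of 24 libraries, 7 correlated best with their own number. Whether these counts differ from those of unpaired libraries was not tested.

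The median of the 386 genes of the last stretch, an alternative set chosen after seeing the data, kept its sign in all 44 alternatives, from -0.56 to -0.40. It was -0.43 at a pseudocount of 5, -0.45 with limma-voom, -0.45 with log2 depth, -0.44 without libraries under 1000000 reads, -0.44 in the lower range, -0.40 at 4 h and -0.45 at 11 h. Leaving out 1 library gave -0.54 to -0.48.

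Of 44 alternatives each, ENSGALG00010012781 and ENSGALG00010011192 kept their call in 42, and ENSGALG00010011442 and ENSGALG00010010713 in 41. Calls were lost at single times or in the upper range alone. The difference ran from 1.40 to 2.25 log2 units for ENSGALG00010012781 and from 1.45 to 2.33 for ENSGALG00010011442. Both higher genes thus passed the limit of 2 log2 units in some alternatives. The interaction gave 0 calls in all 8 alternatives. Low counts limit the rest: 14 of the 48 on/off genes were under 1 CPM in marker-low libraries.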
